A study of Mus musculus with 12 samples.

Results

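Polycomb repressive complex 2 (PRC2) is the enzyme complex that methylates histone H3 at lysine 27, a mark of silenced genes. Its 10 genes described here were taken by symbol from the 54532 gene identifiers counted in mouse malignant peripheral nerve sheath tumours: the core genes Eed, Suz12, Ezh1, Ezh2, Rbbp4 and Rbbp7 and the accessory genes Jarid2, Aebp2, Mtf2 and Phf19. All 10 were found and all 10 passed the filter on low counts, which kept 15650 genes. Ezh1 and Ezh2 are alternative catalytic subunits, Eed and Suz12 hold the catalytic core together, and Rbbp4 and Rbbp7 are histone-binding subunits shared with other chromatin complexes. Jarid2 and Aebp2 define one form of the complex (PRC2.2), while Mtf2 and Phf19, Polycomb-like proteins, belong to the other (PRC2.1). In human tumours of this kind SUZ12 or EED is often lost together with NF1 and CDKN2A, and the histone mark is then lost too.

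The study measured RNA in 12 tumours by bulk sequencing, in 3 groups of 4. All tumours were raised in mice of the strain labelled C57B/6 and genotype WT, by an adenovirus carrying Cas9 aimed at 2 genes, Nf1 and one spelled Cdk2na in the labels, taken to mean Cdkn2a, so controls carry the same editing. The vehicle group was taken at the terminal time. The treated mice were given 100 mg/kg palbociclib, an inhibitor of the cell cycle kinases CDK4 and CDK6, and 1 mg/kg mirdametinib, an inhibitor of the kinase MEK, daily by oral gavage. Regressing tumours were taken while shrinking, and terminal combination tumours at the end, at the time called terminal. The labels do not give the age of the mice or say whether each tumour came from its own mouse, so p-values reflect only how these 12 samples spread. Replicate numbers follow the order of the sample records and pair nothing. The series design speaks of sensitive and resistant tumours, and no label ties either word to a treated group.

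Library totals ran from 13194699 to 22639625 counted reads. The edited genes were still transcribed: Nf1 ran from 10.2 to 23.8 CPM, counts scaled to a common library size, and Cdkn2a from 5.08 to 393 CPM, and gene counts do not show whether the edits disabled them. Skeletal muscle markers differed widely between tumours and were higher in most treated ones. Their summed level was 669 to 10700 CPM in vehicle, 4730 to 63000 CPM in regressing and 3170 to 39800 CPM in terminal combination tumours, and only Myh2 was at 0 in any library, a vehicle one. Regressing tumours 1 and 4 and terminal combination tumour 2 stood highest. Schwann lineage markers were low, summing to 21.9 to 82.6 CPM, and Sox10 and Sox2 were each at 0 in at least 1 vehicle library, and Sox10 in a terminal combination library too. In bulk RNA, fewer cells of a type and less RNA per cell cannot be told apart.

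The promoters of the members are shown here because E2F factors, which CDK4 and CDK6 act on through the RB protein, bind short words near the starts of many replication genes. The words TTTCCCGC, TTTGGCGC, TTTCGCGC and TTTGCCGC were searched on both strands of the RefSeq windows of GRCm38.p6, from 250 bases before to 50 after each start. All 10 members had a window, and 3 of the 10 held a word, none more than 1 word. Among all genes with a window, 704 of 27025 (2.6%) did, and among windows 744 of 32851 (2.26%) against 3 of 14 member windows. The 30 bases around each word are printed along the gene's strand, with the word in capitals:
Ezh2: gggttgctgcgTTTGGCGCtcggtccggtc
Suz12: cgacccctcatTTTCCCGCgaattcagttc
Phf19: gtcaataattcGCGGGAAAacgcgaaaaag

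Offsets are counted from the RefSeq starts, and those of Ezh2 and Phf19 are not the outer GENCODE bounds given below. The Ezh2 stretch is chr6:47595009-47595038 on the minus strand, and its word begins 3 bases after the RefSeq start. That of Suz12 is chr11:79992876-79992905 on the plus strand, with the word at -219. That of Phf19 is chr2:34914166-34914195 on the minus strand, with the word at -208 on the opposite strand. The windows of all other members, Ezh1 among them, held none of these words. A match is a run of letters, and binding was not measured. Whether the words bear on the members' levels was not tested.

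Per kilobase of exon, the members' levels covered a wide range. On the scale of reads per kilobase of merged exon at a common depth (RPKM), means ± SD over 12 tumours were 85.8 ± 10.8 for Rbbp7 and 26.6 ± 4.59 for Rbbp4. The scaffold genes followed, with 11.1 ± 2.97 RPKM for Suz12 and 7.03 ± 0.957 for Eed. Then came Aebp2 at 5.9 ± 0.691, Ezh1 at 5.84 ± 1.72 and Ezh2 at 3.9 ± 1.1 RPKM. Phf19 at 3.38 ± 1.23, Mtf2 at 2.54 ± 0.625 and Jarid2 at 1.9 ± 0.431 RPKM were lowest. From Eed downwards each neighbour in this order lay within the sum of the SDs. By the longest transcript in place of merged exons, Eed (13.02 RPKM) came above Suz12 (12.53) and Ezh1 (10.33) above Aebp2 (9.81).

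The members also differed in how much they varied. The coefficient of variation of the RPKM over 12 tumours was 36.2% for Phf19, 29.5% for Ezh1 and 28.3% for Ezh2, and 11.7% for Aebp2, the steadiest. Within groups, the SD of log2 CPM had a median of 0.30 over the members, between 0.17 and 0.58, and of 0.43 over all genes tested. Each member had at least 126 reads in every library, the fewest for Phf19, and at most 6023, for Rbbp7. Ezh1 and Ezh2 ran opposite to each other (r = -0.90 across the 12 tumours, a description), and Suz12 followed Ezh2 (r = 0.72) and ran against Ezh1 (r = -0.69).

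**Figure D1:**
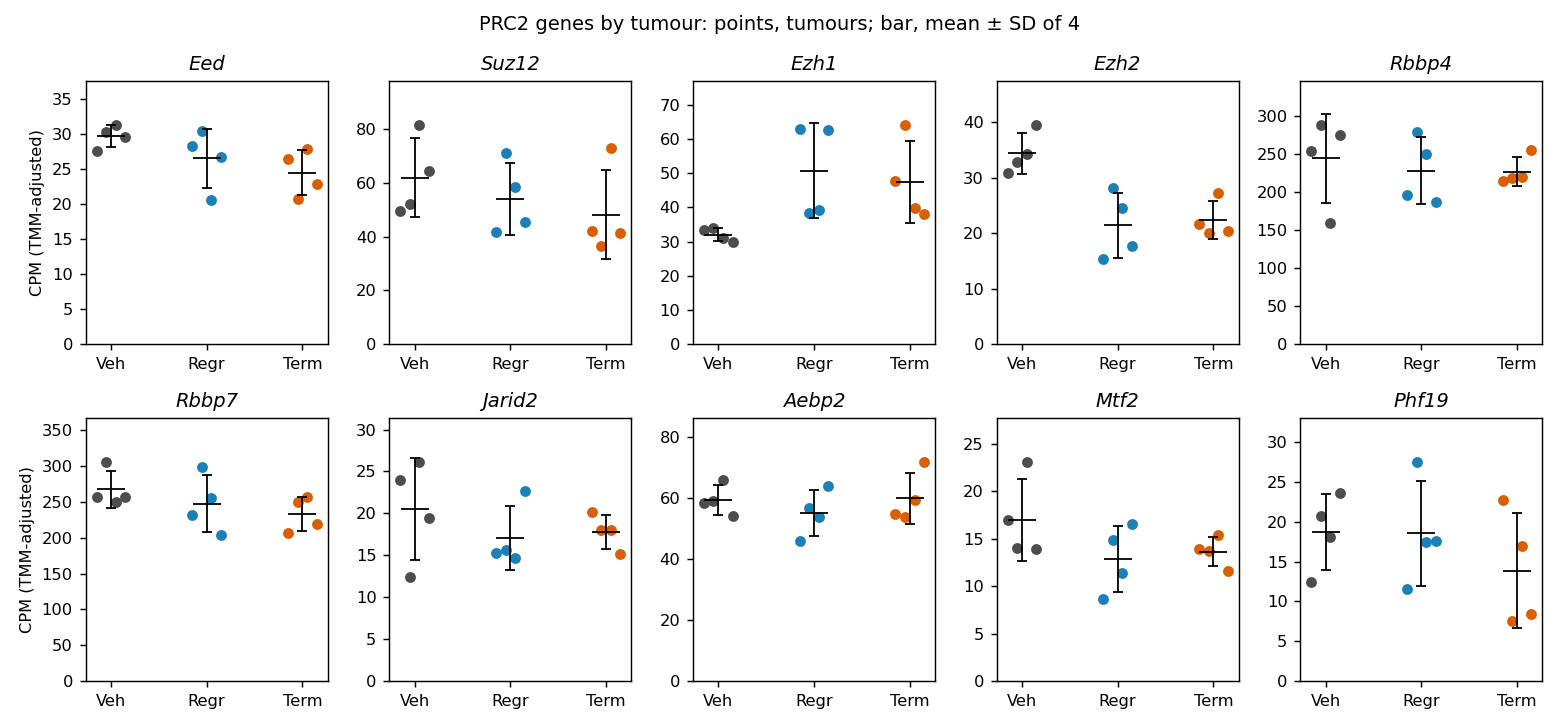
CPM of the 10 PRC2 genes (vertical axes, from 0) in vehicle (Veh), regressing (Regr) and terminal combination (Term) tumours, with a point for each tumour and a bar for the mean ± SD of 4. In the Ezh2 panel all 8 treated tumours (15.3 to 28.1 CPM) lie below the 4 vehicle tumours (30.8 to 39.5 CPM), and in the Ezh1 panel they lie above.

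The catalytic subunits separated treated from vehicle tumours, in opposite directions. Ezh2 (ENSMUSG00000029687, chr6:47530139-47595341 on GRCm38) was at 30.8, 32.9, 34.3 and 39.5 CPM in vehicle tumours 1 to 4, at 15.3, 28.1, 24.5 and 17.7 in regressing tumours and at 21.7, 20.1, 27.3 and 20.5 in terminal combination tumours. Every treated tumour was below every vehicle tumour. Ezh1 (ENSMUSG00000006920, chr11:101191115-101226463) was at 33.3, 34.0, 31.0 and 29.9 CPM in vehicle tumours, at 62.8, 38.4, 39.4 and 62.6 in regressing tumours and at 47.9, 64.2, 39.8 and 38.0 in terminal combination tumours. Every treated tumour was above every vehicle tumour, and the 3 highest were regressing 1 and 4 and terminal combination 2, the 3 libraries richest in muscle transcripts. The share of all genes that separate all treated from all vehicle tumours was not counted. Shares for each treated group against vehicle are given below.

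In regressing against vehicle tumours, the fitted log2 difference of Ezh2 was -0.68 (SE 0.20, 95% interval -1.13 to -0.24), a level 0.623 times that of vehicle. By edgeR's quasi-likelihood test its p was 0.00604 and its adjusted p 0.254 over all genes. Ezh1 differed by 0.66 (SE 0.22, 0.19 to 1.14), 1.58 times the vehicle level, with an edgeR p of 0.0102 and an adjusted p of 0.277. Neither passed the adjusted threshold of 0.05, and DESeq2 gave adjusted p of 0.0737 for Ezh2 and 0.118 for Ezh1. EdgeR called 0 genes in this comparison (0.0%), with 1994 under an unadjusted p of 0.05 (12.7%; 6.72% higher and 6.03% lower), and DESeq2 called 492 of 17748 (2.77%), none of them a member. Of the 10 members, 1 was under an unadjusted p of 0.05 on each side. The groups did not overlap for 1 member that was higher and 1 that was lower, where 3.5% and 4.13% of all genes did the same, so the members' share of separated genes rests on 2 of 10.

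In terminal combination against vehicle tumours, Ezh2 differed by -0.62 (SE 0.20, -1.06 to -0.17; 0.651 times vehicle), with an edgeR p of 0.0107 and an adjusted p of 0.819. Ezh1 differed by 0.57 (SE 0.22, 0.09 to 1.04; 1.48 times vehicle), with an edgeR p of 0.0233 and an adjusted p of 0.819. DESeq2 gave adjusted p of 0.449 and 0.623. EdgeR called 0 genes (0.0%), with 930 under an unadjusted p of 0.05 (5.94%; 3.35% higher and 2.59% lower), and DESeq2 called 11 of 21692 (0.0507%), none a member. The members again gave 1 gene on each side, both under an unadjusted p of 0.05 and without overlap, where 1.21% of all genes were separated upwards and 1.3% downwards. The comparisons share the vehicle tumours, so they are not separate evidence.

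The treated groups were close to each other. In terminal combination against regressing tumours Ezh2 differed by 0.06 (95% interval -0.38 to 0.51) and Ezh1 by -0.10 (-0.57 to 0.37), and these intervals include differences of up to 0.57 on the log2 scale. EdgeR called 0 genes (0.0%), with 1099 under an unadjusted p of 0.05 (7.02%; 4.12% higher and 2.9% lower), and DESeq2 called 82 of 18234 (0.45%). No member was under an unadjusted p of 0.05, called by DESeq2 or free of overlap, where 2.4% and 1.51% of all genes were separated upwards and downwards. Across the 3 groups at once, edgeR gave adjusted p of 0.477 for Ezh2 (0.00928 unadjusted) and 0.505 for Ezh1 (0.0239 unadjusted), and called 0 genes of 15650 (0.0%), with 1480 under an unadjusted p of 0.05 (9.46%).

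**Figure D2:**
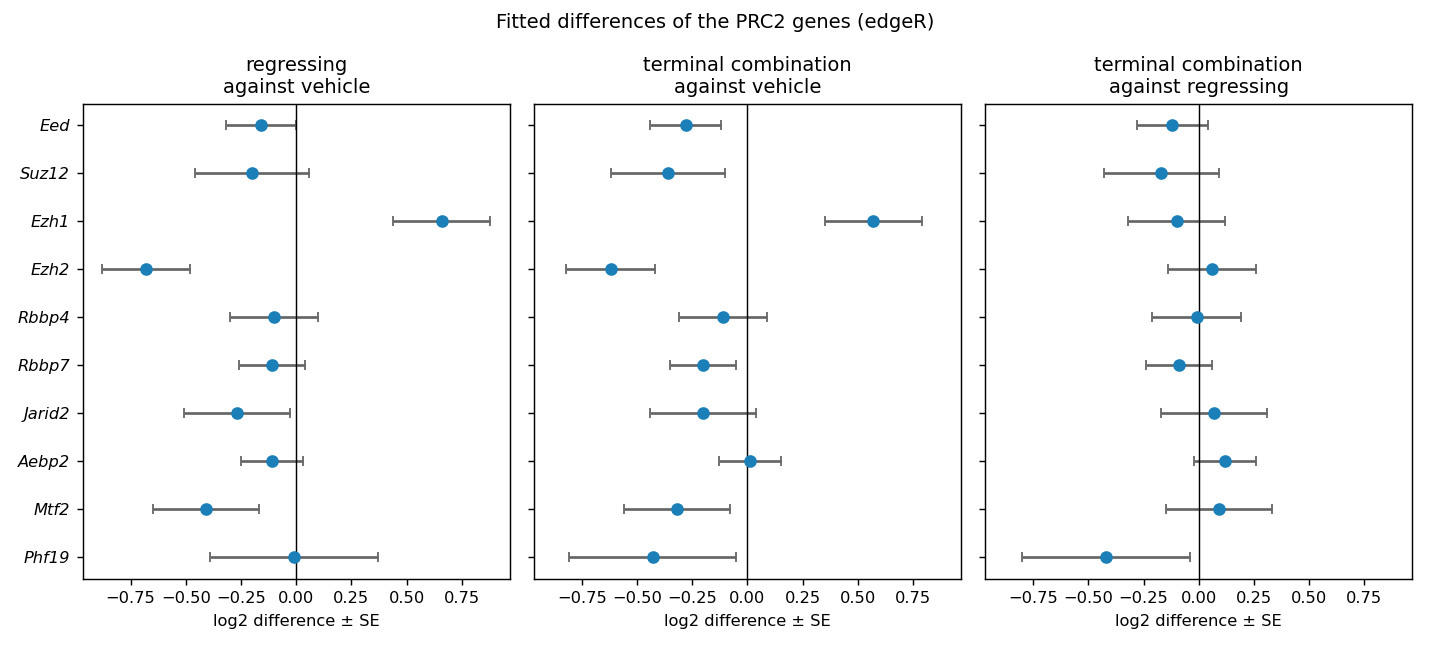
Fitted log2 differences (horizontal axes, points, with bars of 1 SE, from edgeR) of the 10 PRC2 genes in the 3 comparisons. Ezh1 at 0.66 and 0.57 and Ezh2 at -0.68 and -0.62 stand farthest from 0 in the comparisons with vehicle, and both lie near 0 between the treated groups.

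Set against each other within a tumour, Ezh2 was lower relative to Ezh1 in every treated tumour than in any vehicle tumour. This order follows from the separation of both genes described above and is not further evidence. Per kilobase of merged exon, the Ezh2 to Ezh1 ratio was 1.03, 1.08, 1.23 and 1.47 in vehicle tumours, 0.271, 0.813, 0.695 and 0.314 in regressing tumours and 0.504, 0.349, 0.763 and 0.601 in terminal combination tumours. The ratio was above 1 in all 4 vehicle tumours and below 1 in all 8 treated ones. The mean log2 ratio was 0.25 ± 0.23 in vehicle, -1.09 ± 0.80 in regressing and -0.91 ± 0.48 in terminal combination tumours (SD, n = 4). With the longest transcripts as lengths these means were 0.69, -0.66 and -0.47, and regressing 2 (ratio 1.10) and terminal combination 3 (1.03) were above 1 as vehicle was. Where the ratio crosses 1 thus depends on the length used, while the distance between groups does not. The summed RPKM of both subunits was 9.46 ± 0.362, 10.03 ± 1.02 and 9.73 ± 1.43 in the 3 groups. These means differed by less than the SD of either treated group, but regressing and vehicle differed by more than the vehicle SD. No test was made of the ratio or the sum.

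**Figure D3:**
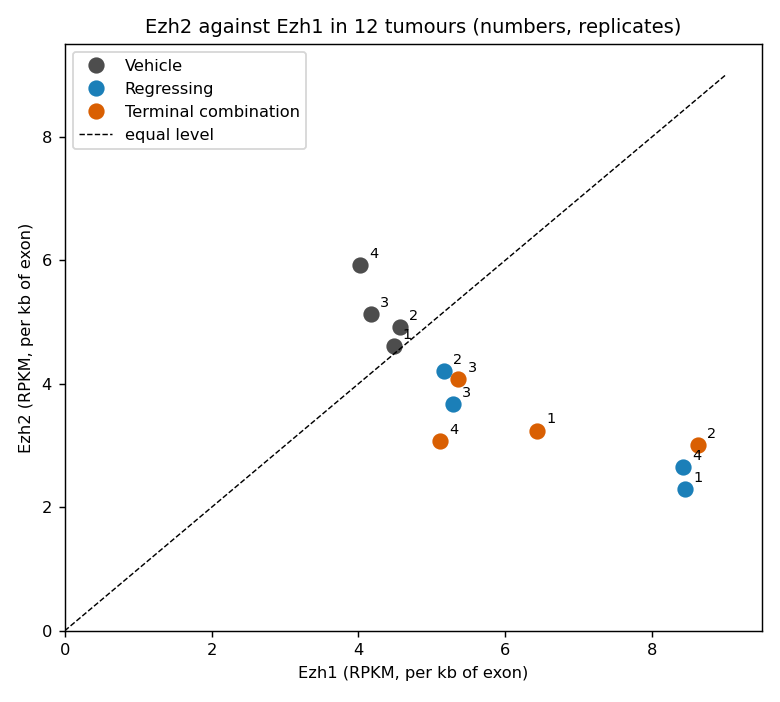
Ezh2 (vertical axis) against Ezh1 (horizontal axis), both in RPKM over merged exons, with a point for each of the 12 tumours numbered by replicate and a dashed line of equal level. The 4 vehicle tumours lie above the line, the 8 treated tumours below it, and regressing 1 and 4 and terminal combination 2 lie farthest to the right.

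The level of other cell types and of dividing cells moved with these genes. A list of 22 genes of dividing cells, among them Mki67, was lower in 21 of 22 in regressing tumours against vehicle. In that comparison 6 were lower under an unadjusted edgeR p of 0.05 (6.03% of all genes), and the list's median log2 difference was -0.68. In terminal combination tumours 21 of 22 were lower (12 under 0.05, 2.59% of all genes, median -0.85). With the muscle level as a covariate, 13 were lower and 9 higher in regressing tumours (0 under 0.05, median -0.11), and 20 lower in terminal combination tumours (1 under 0.05, median -0.33). Without regressing 1 and 4 the regressing counts were 17 lower and 5 higher (1 under 0.05, median -0.28). Leaving out single libraries, the regressing count under 0.05 went up to 15 without regressing 2, and the terminal combination count down to 2 without terminal combination 2 or 4 and 4 without vehicle 3 or 4. Its summed level was 1900 to 2660 CPM in vehicle, 874 to 2160 CPM in regressing and 865 to 2010 CPM in terminal combination tumours. The 14 muscle markers were higher in 14 of 14 in regressing tumours (10 under 0.05, 6.72% of all genes). In terminal combination tumours 13 of 14 were higher (8 under 0.05, 3.35% of all genes). Adipocyte markers were higher in 10 of 10 and 9 of 10, from 20.0 to 140 CPM in vehicle to 261 to 2270 in regressing and 85.7 to 578 in terminal combination tumours. Plin1, Plin4, Cidec, Lep, Retn and Cfd were each at 0 in some vehicle library.

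Across the 12 tumours, Ezh2 followed the mean log2 CPM of the dividing-cell list (Pearson r = 0.91, permutation p = 2e-05, adjusted 8e-05 over 4 relations; Spearman rho = 0.88, permutation p = 0.00033). Without regressing 1 and terminal combination 4, the tumours farthest from the median of the list, r was 0.93. It ran against the muscle list (r = -0.81, permutation p = 0.00158, adjusted 0.00316; rho = -0.90, permutation p = 0.00024), with r = -0.81 without vehicle 2 and 3. Ezh1 showed the reverse. Its r was -0.78 with the dividing-cell list (permutation p = 0.00374, adjusted 0.00493; rho = -0.69, permutation p = 0.0165) and -0.96 without regressing 1 and terminal combination 4. It was 0.76 with the muscle list (permutation p = 0.00493, adjusted 0.00493; rho = 0.75, permutation p = 0.00698) and 0.75 without vehicle 2 and 3.

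These relations mix groups that differ in all of these levels, and the permutations shuffled tumours across groups. The adjustment covers only these 4 relations, whose genes and lists were chosen with earlier results of these data known. After each group's mean was removed, r was 0.88 for Ezh2 with dividing-cell genes, -0.60 for Ezh2 with muscle markers, -0.60 for Ezh1 with dividing-cell genes and 0.51 for Ezh1 with muscle markers. Some titles end in FFT, which the sources do not explain, and in the 8 libraries lacking it r was 0.92, -0.93, -0.71 and 0.87 in the same order. The third had a permutation p of 0.0543, and the FFT libraries were 4, too few for a value. With the muscle level as a covariate, Ezh2 differed by -0.38 and Ezh1 by 0.31 in regressing tumours, and by -0.37 and 0.31 in terminal combination tumours. Without regressing 1 and 4 the regressing differences were -0.39 and 0.28, both more than 1.5 times smaller, and without terminal combination 2 as well Ezh1 differed by 0.37 in terminal combination tumours. With the covariate the unadjusted edgeR p was 0.142 for Ezh2 and 0.3 for Ezh1 in regressing tumours, and 0.128 and 0.245 in terminal combination tumours. Without regressing 1 and 4 it was 0.0676 for Ezh2 and 0.253 for Ezh1 in regressing tumours. In titles lacking FFT it was 0.0903 and 0.0827 for Ezh1 in the 2 comparisons with vehicle and 0.0362 and 0.0269 for Ezh2. In terminal combination tumours the edgeR p of Ezh1 was 0.088 without terminal combination 2 and 0.055 without vehicle 4.

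**Figure D4:**
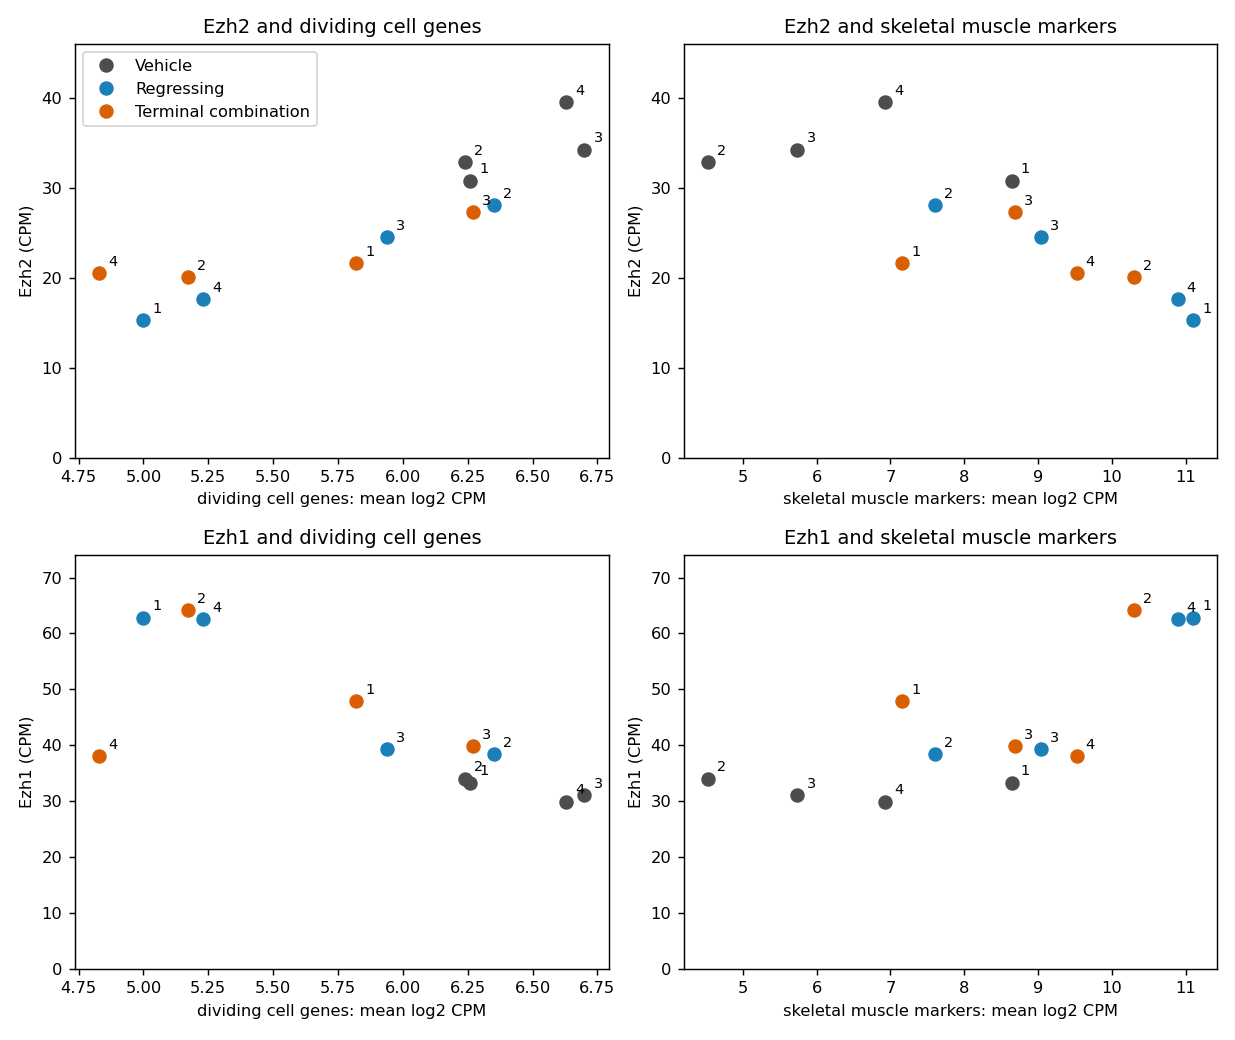
Ezh2 (upper panels) and Ezh1 (lower panels) in CPM against the mean log2 CPM of the dividing-cell genes (left) and of the skeletal muscle markers (right), with a point for each tumour, coloured by group and numbered by replicate. Ezh2 climbs with the dividing-cell level (r = 0.91), and the 3 tumours highest in Ezh1 are the 3 highest in muscle markers.

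The other cell types on the lists were less even. In regressing tumours against vehicle, T cell markers were higher in 10 of 10 (6 under an unadjusted edgeR p of 0.05), B and plasma cell markers in 7 of 7 tested (7 under 0.05) and fibroblast markers in 5 of 7 (1 under 0.05). Of all genes, 6.72% were higher under 0.05 there. The T cell sums were 50.8, 103, 21.3 and 468 CPM in regressing tumours against 41.8 to 47.0 in vehicle, so regressing 3 was below every vehicle tumour. Without regressing 4, 9 of 10 T cell markers were higher and 0 were under 0.05, and with the muscle level as a covariate 0 were too. In terminal combination tumours the corresponding counts were 1 of 10, 0 of 7 and 5 of 7. Schwann lineage markers were higher in 5 of 8 and 6 of 8, macrophage markers in 7 of 9 and 3 of 9, endothelial markers in 5 of 8 and 2 of 8 and keratinocyte markers in 1 of 3 and 2 of 3. The part of these cell types in the members' levels was not tested.

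The genes whose log2 CPM was most like that of Ezh2 over the 12 tumours were Alg13 (r = 0.981), H2afz (0.958), Ddx39 (0.95), Nasp (0.949) and Ncbp1 (0.943). H2afz encodes a histone H2A variant and Nasp a histone chaperone. Those most like Ezh1 were Hsf4 (r = 0.957), Vldlr (0.943), Hint3 (0.932), Zfp51 (0.926) and Parm1 (0.924). Vldlr, a lipoprotein receptor, ran from 4.08 to 148 CPM. All are correlations between genes of the same 12 libraries and share their depth and make-up.

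The scaffold subunits, whose loss marks many human tumours of this kind, were present in every tumour. Eed (ENSMUSG00000030619, chr7:89954654-89980983), which reads the methyl mark and stimulates the enzyme, was at 27.6, 30.4, 31.3 and 29.6 CPM in vehicle, at 28.4, 30.4, 20.6 and 26.8 in regressing and at 26.5, 20.8, 27.8 and 22.9 in terminal combination tumours. The groups overlapped, and the lowest values were regressing 3 and terminal combination 2. Its log2 differences from vehicle were -0.16 (95% interval -0.50 to 0.18) and -0.28 (-0.62 to 0.06), with edgeR adjusted p of 0.682 and 0.84.

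Suz12 (ENSMUSG00000017548, chr11:79993106-80034123), which stabilises the enzyme, was at 49.7, 52.2, 81.6 and 64.4 CPM in vehicle, at 41.7, 71.0, 58.4 and 45.3 in regressing and at 42.0, 36.6, 72.8 and 41.5 in terminal combination tumours. All groups overlapped, with vehicle 3, regressing 2 and terminal combination 3 standing highest in their groups. Its log2 differences from vehicle were -0.20 (-0.76 to 0.37) and -0.36 (-0.93 to 0.20), with edgeR adjusted p of 0.772 and 0.876. The transcripts of Eed and Suz12 were thus counted in all 12 tumours, where stromal and muscle cells also express them, and counts do not show whether a transcript is mutated. The genes most like Suz12 were Faap24 (r = 0.955), Ppm1g (0.952), Rtel1 (0.95), Xpo1 (0.95) and Gm7517 (0.947), and those most like Eed were Gm47813 (0.911), BC002059 (0.893), Timm9 (0.89), Med8 (0.87) and Zfp995 (0.859). Gm47813, at 0.177 to 0.786 CPM, and Gm7517, at 0.573 to 2.1 CPM, had few reads.

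The histone-binding subunits were abundant and close between groups. Rbbp4 (ENSMUSG00000057236, chr4:129307100-129335370) was at 254, 288, 160 and 275 CPM in vehicle, at 196, 279, 250 and 186 in regressing and at 214, 218, 219 and 255 in terminal combination tumours. Rbbp7 (ENSMUSG00000031353, on the X chromosome at 162760402 to 162779092) was at 258, 307, 249 and 258 CPM, at 232, 299, 256 and 204, and at 207, 250, 258 and 220 in the same order. Vehicle tumour 3 was the lowest of all in Rbbp4 and not in Rbbp7, and all groups overlapped. Log2 differences from vehicle were -0.10 and -0.11 for Rbbp4 and -0.11 and -0.20 for Rbbp7, with edgeR adjusted p between 0.775 and 0.955. Rbbp7 has a processed pseudogene, Gm6382, alike over 942 bases at 97.1%, with at most 98 reads in a library. Rbbp4 overlaps Sync on the other strand, which had at most 796.

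Of the PRC2.2 genes, Jarid2 (ENSMUSG00000038518, chr13:44729474-44921643), which helps bring the complex to chromatin, was at 24.0, 12.4, 26.2 and 19.4 CPM in vehicle, at 15.2, 15.6, 14.6 and 22.7 in regressing and at 20.1, 18.0, 18.0 and 15.2 in terminal combination tumours. Aebp2 (ENSMUSG00000030232, chr6:140622663-140678472), a zinc finger cofactor, was at 58.5, 59.0, 66.0 and 54.1 CPM, at 45.8, 56.8, 53.8 and 64.0, and at 54.7, 53.8, 59.5 and 72.0 in the same order. Vehicle 2 was the lowest of all 12 tumours in Jarid2 and terminal combination 4 the highest in Aebp2, and the groups overlapped for both. Log2 differences from vehicle were -0.27 (SE 0.24) and -0.20 (SE 0.24) for Jarid2 and -0.11 (SE 0.14) and 0.01 (SE 0.14) for Aebp2.

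Of the PRC2.1 genes, Mtf2 (ENSMUSG00000029267, chr5:108065674-108109004), a DNA-binding Polycomb-like protein, was at 17.0, 14.0, 23.1 and 13.9 CPM in vehicle, at 8.67, 14.8, 11.4 and 16.5 in regressing and at 13.9, 13.7, 15.4 and 11.6 in terminal combination tumours. Phf19 (ENSMUSG00000026873, chr2:34893757-34914026), its relative, was at 12.4, 20.8, 18.1 and 23.6 CPM, at 11.5, 27.6, 17.5 and 17.6, and at 22.7, 7.51, 16.9 and 8.39 in the same order. Both spread widely within groups, with Phf19 lowest in terminal combination 2 and 4, and the groups overlapped. Mtf2 differed from vehicle by -0.41 (SE 0.24, edgeR adjusted p 0.5) and -0.32 (SE 0.24, 0.886), and Phf19 by -0.01 (SE 0.38, 0.991) and -0.43 (SE 0.38, 0.908). With the muscle level as a covariate Phf19 was instead higher than vehicle in both treated groups, as given below. Mtf2 overlaps Tmed5 on the other strand over 396 bases of transcript, with up to 831 reads of Tmed5, and the strand counted is not given in the sources used here.

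Counted together, 9 of the 10 members were lower and 1 higher in regressing tumours, where 51.5% of all genes were lower and 48.5% higher, with a median log2 difference of -0.14 over the members and -0.02 over all genes. In terminal combination tumours 8 were lower and 2 higher, where 49.6% and 50.4% of all genes were, with medians of -0.24 and 0.00. Between the treated groups 6 were lower and 4 higher in terminal combination tumours, against 49.2% and 50.8% of all genes, with medians of -0.05 and 0.01. The regressing count rests on tumours 1 and 4: without them 5 members were lower and 5 higher, and with the muscle level as a covariate the same counts were found. In terminal combination tumours the members' median was -0.05 with that covariate, where Rbbp4 and Phf19 changed sign. It was -0.23 there without the 3 libraries highest in muscle genes.

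Of the other accessory genes listed, Phf1, Epop, Lcor and Lcorl were tested. Of these, 3 of 4 were lower than vehicle in each treated group, with medians of -0.17 and -0.21. Epop, which links PRC2.1 to elongin, had a log2 difference of -0.99 (SE 0.44, edgeR p 0.0429, adjusted p 0.819) in terminal combination tumours, at 1.89 to 4.05 CPM against 3.08 to 8.75 CPM in vehicle. Phf1, the third Polycomb-like gene, differed by 0.40 and 0.58 in the 2 treated groups, upwards where Mtf2 was downwards, and its p also missed the adjusted threshold.

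The partner complex PRC1 ubiquitylates histone H2A and reads the PRC2 mark. Of its 22 genes, 18 were lower and 4 higher in regressing tumours, with a median of -0.25. There 1 lower and 2 higher were under an unadjusted edgeR p of 0.05, near the 6.03% and 6.72% of all genes. In terminal combination tumours 13 were lower and 9 higher than vehicle (0 under 0.05, median -0.01). Between the treated groups 17 were higher in terminal combination tumours (1 under 0.05, 4.12% of all genes, median 0.17). With the muscle level as a covariate 12 were lower and 10 higher in regressing tumours (0 under 0.05, median -0.07), and without regressing 1 and 4 it was 14 and 8 (0 under 0.05, median -0.15). Without regressing 1 or 4 alone none of the higher genes was under 0.05, and without terminal combination 1 the median between treated groups was 0.04, with 13 higher. Cbx7, a reader of the mark, was at 5.30, 9.51, 1.73 and 6.77 CPM in vehicle, at 24.2, 6.79, 9.09 and 25.5 in regressing and at 9.67, 10.6, 7.33 and 18.4 in terminal combination tumours. Its highest values were in regressing 1 and 4, as for Ezh1, and its log2 difference in regressing tumours was 1.49 (SE 0.56, edgeR adjusted p 0.306). Pcgf3 differed by -0.46 (SE 0.16) and Pcgf5 by 0.65 (SE 0.27) in regressing tumours, and Phc3 by 0.63 (SE 0.28) between the treated groups.

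Genes that act against the mark were mostly lower in regressing tumours than in either other group. The list holds 13: the H3K27 demethylases Kdm6a and Kdm6b, the H3K36 methyltransferases Nsd1, Nsd2, Nsd3, Setd2 and Ash1l, the acetyltransferases Crebbp and Ep300 and the H3K4 methyltransferases Kmt2a to Kmt2d. In regressing tumours 13 of 13 were lower than vehicle (median log2 difference -0.48), 6 of them under an unadjusted edgeR p of 0.05 (6.03% of all genes) and 7 without overlap (4.13%), and DESeq2 called 2 (2.77%), Kdm6b and Setd2. In terminal combination against vehicle tumours 7 were lower and 6 higher (median -0.01). There 1, Nsd2, was lower under 0.05 (2.59% of all genes) and without overlap (1.3%). With the muscle level or the FFT ending as a covariate 0 were under 0.05. Against regressing tumours 12 of 13 were higher (median 0.39), 8 under 0.05 (4.12% of all genes) and 5 without overlap (2.4%), and edgeR and DESeq2 called 0. Comparisons of this list share the regressing tumours.

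Kdm6b was at 45.3, 47.5, 59.9 and 57.3 CPM in vehicle, at 30.1, 31.6, 37.4 and 34.6 in regressing and at 53.4, 46.3, 64.3 and 44.9 in terminal combination tumours. All 4 regressing tumours were below all 8 others. Its log2 difference was -0.65 (SE 0.16, edgeR p 0.00141, adjusted p 0.236; DESeq2 adjusted p 0.0173) from vehicle, and 0.64 (SE 0.16, edgeR p 0.00153, adjusted p 0.692) between treated groups. Setd2 differed by -0.46 (SE 0.12, DESeq2 adjusted p 0.0203) and Kmt2b by -0.69 (SE 0.20) in regressing tumours, and Ep300 by 0.63 (SE 0.17) between the treated groups. Nsd2, at 107 to 122 CPM in vehicle, was at 47.4 to 106 in regressing and 62.9 to 92.9 in terminal combination tumours, below vehicle in every treated tumour as Ezh2 was.

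Without regressing 1 and 4, 13 of 13 were lower than vehicle (7 under an unadjusted edgeR p of 0.05, median -0.59), and with the muscle level as a covariate 13 of 13 were (3 under 0.05, median -0.53). In titles lacking FFT 12 of 13 were (4 under 0.05, median -0.48), and between the treated groups 9 were higher and 4 lower (4 under 0.05, median 0.31). These genes have long transcripts, and long transcripts lay the same way as a class. Of 13758 protein-coding genes tested, the 808 with a transcript of at least 8000 bases, among them 10 of the 13, had a median log2 difference of -0.22 in regressing tumours, with 69.1% lower, against a median of -0.02 over all. Between the treated groups their median was 0.20, with 28.1% lower. The part of transcript length in the list's difference was not tested.

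**Figure D5:**
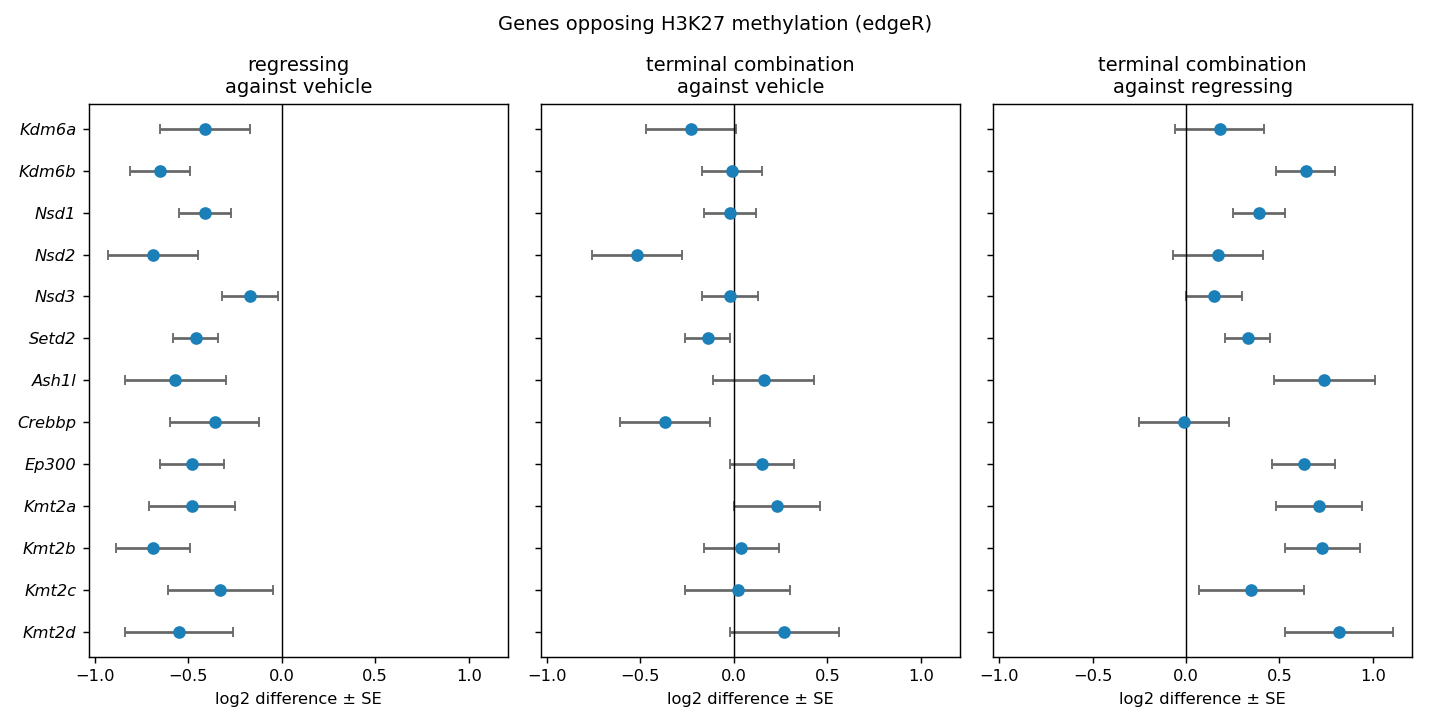
Fitted log2 differences (horizontal axes, points, with bars of 1 SE, from edgeR) of the 13 genes that oppose H3K27 methylation in the 3 comparisons. All 13 lie below 0 in regressing against vehicle tumours, and 12 lie above 0 in terminal combination against regressing tumours.

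Rbbp4 and Rbbp7 also serve the NuRD, SIN3, CAF-1 and DREAM-type complexes. Of 18 genes of these, 15 were lower in regressing tumours, with a median of -0.31 over the list. In that comparison 4 were lower under an unadjusted edgeR p of 0.05 (6.03% of all genes) and 2 without overlap (4.13%). In terminal combination tumours 14 were lower (1 under 0.05, 2.59% of all genes, median -0.11). With the muscle level as a covariate 12 of the 18 were lower in regressing tumours (0 under 0.05, median -0.05), and without regressing 1 and 4 it was 16 (0 under 0.05, median -0.20). Chd4, the NuRD remodelling enzyme, was at 318 to 368 CPM in vehicle, at 242 to 277 in regressing and at 299 to 432 in terminal combination tumours, below both other groups in all 4 regressing tumours. Its log2 difference from vehicle was -0.41 (SE 0.14, edgeR adjusted p 0.282) and between treated groups 0.42 (SE 0.14, adjusted p 0.692). Hdac1 (-0.37) and Mta1 (-0.38) of the same complex were lower in regressing tumours, at adjusted p of 0.35 and 0.352, and Chaf1b, a subunit of the replication-coupled CAF-1, differed by -1.15 (SE 0.50, adjusted p 0.819) in terminal combination tumours.

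Classical target genes of Polycomb repression varied from tumour to tumour. Of 39 Hox genes 26 passed the filter, 20 lower and 6 higher in regressing tumours (1 under an unadjusted edgeR p of 0.05, median -0.78) and 15 higher and 11 lower in terminal combination tumours (2 under 0.05, median 0.06). Those under 0.05 were higher, as 6.72% and 3.35% of all genes were in the 2 comparisons. Hoxc13 was at 0 in 3 vehicle tumours and at 0.0508 CPM in the fourth, while regressing 4 had 6.94 and terminal combination 4 had 8.44 CPM, and regressing 2 and terminal combination 2 were at 0. Hoxd10 was at 0.407 to 1.23 CPM in vehicle and at 0.196 to 6.65 in terminal combination tumours. Hoxa5 was at 0.956 to 1.16 CPM in regressing tumours, below the 1.42 to 4.03 of vehicle. The median in regressing tumours rests on vehicle tumour 2, which was high in several Hoxb genes, with Hoxb3 at 10.01 CPM against 0.214 to 0.875 in the other vehicle tumours: without it the median was -0.13, with 15 lower and 11 higher. With the muscle level as a covariate it was -0.04, and in titles lacking FFT -0.06. The mean log2 CPM of the whole list was 0.14 in vehicle and 0.12 in regressing tumours.

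Of 30 other developmental target genes 16 were tested, 8 lower and 8 higher in regressing tumours (1 under an unadjusted edgeR p of 0.05, median -0.05) and 10 higher in terminal combination tumours (1 under 0.05, median 0.32). The 1 under 0.05 was a lower gene in regressing tumours (6.03% of all genes) and a higher one in terminal combination tumours (3.35%). Gata6, a transcription factor of mesoderm and endoderm, was at 1.88, 0.214, 0.661 and 7.35 CPM in vehicle and at 18.2, 16.4, 7.58 and 8.90 in terminal combination tumours, which do not overlap, and regressing tumours, at 1.40 to 9.52, overlapped both. Its log2 difference from vehicle was 2.33 (SE 0.89, edgeR adjusted p 0.819) in terminal combination tumours. Pax6, an eye and brain factor, stood at 36.9 CPM in vehicle 3 and 14.4 in terminal combination 3 and at most at 2.23 in the other tumours. Cdkn2b, the neighbour of Cdkn2a, differed by 1.02 (SE 0.53, adjusted p 0.834) in terminal combination tumours.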

How the data were processed

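For each of the 12 libraries the authors deposited raw counts of reads over 54532 Ensembl genes. Per the labels' protocols, RNeasy mini columns and TruSeq stranded mRNA kits were used. The submitters' processing notes name HISAT2 2.2.1, Salmon, DESeq2 1.24.0 and the builds mm10 and GRCm38.p6. The counting tool, its strand setting and its annotation are not given in the sources used here. Symbols, positions and lengths came from GENCODE M21, which named 54495 genes, and promoter windows from RefSeq.

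Genes were filtered with filterByExpr (minimum count 10, minimum total 15), scaled by TMM and fitted over all 12 libraries with edgeR's quasi-likelihood test, with Benjamini-Hochberg adjustment over the 15650 genes kept and a threshold of 0.05. CPM use TMM-adjusted totals, list levels are mean log2 CPM with a prior count of 2, and 95% intervals use the t distribution. Relations used 100000 resamples. Depth was 13194699 to 22639625 reads, without molecular identifiers. No libraries were duplicates (chi-square per degree of freedom at least 54.5). Tools were R 4.3.3, edgeR 4.0.16, limma 3.58.1, DESeq2 1.42.0, Python 3.11.15, pandas 2.3.3, numpy 2.4.6, scipy 1.17.1 and matplotlib 3.10.9. The steps were tested on simulated counts for regressing against vehicle tumours, in 3 draws. At the adjusted threshold edgeR recovered 20 of 202 2-fold changes (9.9%), 109 of 186 4-fold changes (58.6%) and 163 of 212 8-fold changes (76.9%). Most 2-fold changes were thus missed, and 12 unchanged genes were called over all draws.

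The members and all 18 lists were chosen with earlier results of these data known. Every member was named. Of each other list described, genes were otherwise named among the 3 with the smallest p in regressing against vehicle tumours and the 2 with the smallest in the other comparisons. For Ezh2, Ezh1, Eed and Suz12 the 5 most correlated genes were named. Named outside this rule, after their values were seen, were Hoxb3, Utp6 and, as genes at 0 in a library, Myh2, Plin1, Cidec, Lep and Retn, and the genes opposing the mark and the other accessory genes were listed whole. The per-tumour values of Cbx7, Kdm6b and Gata6 were also picked then. Alternatives were RLE factors, library totals, no filter, DESeq2, 2-group fits, the FFT ending as covariate or split, the muscle level as covariate, leaving out libraries and transcript length. Some genes of the lists are not reported here.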

Additional observations from a re-analysis of the deposited data

Results flagged for a closer look

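In 4 of 33 groups of 4 tumours checked, 1 tumour stood apart from the other 3 by more than Dixon's critical value of 0.829 for the gap over the range, and chance gives about 1 in 20. Suz12 was at 72.84 CPM in terminal combination tumour 3 and at 36.6 to 42.0 in the others (ratio 0.853). Rbbp4 was at 254.8 CPM in terminal combination tumour 4 and at 214 to 219 in the others (0.876). Rbbp7 was at 306.5 CPM in vehicle tumour 2 and at 249.4 to 257.6 in the others (0.856). Jarid2 was at 22.68 CPM in regressing tumour 4 and at 14.6 to 15.6 in the others (0.878). They fall in 4 different tumours.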

How the results depend on the processing

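Ezh1 and Ezh2 kept their directions against vehicle under all alternatives. Beside leaving out single libraries there were 10 per comparison, with edgeR or DESeq2 adjusted p of 0.0737 to 1.0. In regressing tumours Ezh2 ran from -0.77 to -0.38 and Ezh1 from 0.28 to 0.70, and in terminal combination tumours Ezh2 from -0.71 to -0.37 and Ezh1 from 0.31 to 0.63. DESeq2 called 492, 11 and 82 genes in the 3 comparisons where edgeR called 0. Leaving out single libraries gave 0 to 1 calls, the 1 in terminal combination against regressing tumours and among the 3 groups without terminal combination replicate 4. The choice of leaving out the 3 libraries highest in muscle genes (regressing 1 and 4, terminal combination 2) and the alternatives for the relations were made after seeing the data.

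Phf19 moved far from 0 in regressing tumours with the muscle covariate. Several members changed sign in some settings, and not all of them were near 0 in the main fit. Suz12 was at -0.20 (SE 0.26) in regressing tumours and Phf19 at -0.43 (SE 0.38) in terminal combination tumours, both against vehicle. In regressing against vehicle tumours the members that changed sign were Suz12 (0.19 with the muscle covariate, 0.06 without regressing 1 and 4 and 0.06 without the 3 libraries), Rbbp4 (0.13 in titles lacking FFT, then 0.04, 0.11 and 0.11), Rbbp7 (0.05 in the last 3 settings) and Phf19 (0.85, 0.26 and 0.26 in those, 0.0 with RLE factors, in titles lacking FFT and by DESeq2). In terminal combination against vehicle tumours they were Rbbp4 (0.09 in titles lacking FFT, 0.01 with the muscle covariate), Aebp2 (-0.05 with library totals, -0.03 with FFT as covariate) and Phf19 (0.17 with the muscle covariate). Between treated groups, titles lacking FFT gave 0.02 for Ezh1, -0.05 for Ezh2, -0.05 for Jarid2 and -0.07 for Mtf2. Without regressing 1 and 4 Ezh1 was 0.30 and Ezh2 -0.23, without the 3 libraries Ezh1 was 0.10, Ezh2 -0.20 and Eed 0.0, and with no filter Rbbp4 was 0.01. The members' median in regressing tumours was 0.01 with the muscle covariate and -0.03 without regressing 1 and 4 or the 3 libraries. In terminal combination tumours it was -0.39 in titles lacking FFT and -0.05 with the muscle covariate. The log2 Ezh2 to Ezh1 ratio of vehicle tumours was 0.69 with longest transcripts, and the relation of Ezh1 to dividing-cell genes was -0.71 in titles lacking FFT. The cause was not tested.

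Leaving out 1 library at a time, Ezh2 ran from -0.83 to -0.55 and Ezh1 from 0.54 to 0.79 in regressing tumours, and from -0.73 to -0.55 and 0.39 to 0.66 in terminal combination tumours. Phf19 ran from -0.25 to 0.16 in regressing and Aebp2 from -0.08 to 0.06 in terminal combination tumours. Between treated groups the ranges were -0.28 to 0.02 for Ezh1, -0.07 to 0.21 for Ezh2, -0.09 to 0.09 for Rbbp4, -0.17 to 0.0 for Rbbp7 and -0.06 to 0.23 for Mtf2. The remaining members kept their signs. No paired analysis was possible because the labels carry no replicate numbers shared between groups.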

Other observations

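Suz12 lies near Nf1 on mouse chromosome 11, as it does in humans, where large deletions of NF1 can take SUZ12 with it. Nf1 ends at 79581612 and Suz12 begins 411.5 kb further on, with 2 protein-coding genes between them, Rab11fip4 and Utp6. A list of 12 genes taken as neighbours holds others besides these, whose mouse positions are not given here. Of the 12, 10 were tested, and 6 were lower in regressing tumours (median log2 difference -0.04) and 8 in terminal combination tumours (median -0.23). In either comparison 0 were under an unadjusted edgeR p of 0.05 (12.7% and 5.94% of all genes). Utp6 was at 57.4 to 98.4 CPM in the 12 tumours and Suz12 at 36.6 to 81.6 CPM. Rab11fip4 was at 10.3 CPM in regressing tumour 4 and at most at 1.77 CPM in the other 11.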
